A study of Saccharomyces cerevisiae with 72 samples.

Results

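The small-subunit ribosomal protein genes of budding yeast were followed through 11 comparisons of RNA on splicing-sensitive two-colour arrays. Members were all probes whose gene symbol is RPS, digits and an optional A or B. RPS9A, RPS9B, RPS14A, RPS14B and RPS22B are not included here. This gave 48 genes and 130 probes, out of 982 genes and 1457 named probes on the slide. A gene with 3 or more distinct probes was taken to have an intron, which held for 39 members. The other 9 members (RPS1A, RPS2, RPS3, RPS12, RPS15, RPS20, RPS22A, RPS28A and RPS31) have 1 probe and serve as the contrast without intron. The 48 genes encode 29 proteins, and 18 proteins have an A and a B gene that could both be read for splicing.

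The small (40S) subunit of the ribosome binds the mRNA and holds the decoding centre, where codon and tRNA meet. Its protein genes are among the most strongly transcribed genes of growing yeast, and most exist as a pair of near-identical copies. Introns are rare in the yeast genome but common in ribosomal protein genes, so that a large share of all splicing in a growing cell serves them. Their transcription is known to be lowered by stress and starvation through the TOR and protein kinase A pathways.

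Of 72 arrays in 11 groups, every one has a partner with exchanged dyes, for 36 pairs. Among 5 courses of 6 time points, 3 were sampled at 2, 4, 6, 10, 15 and 20 min in 50 mM 3-amino-1,2,4-triazole (3-AT), an inhibitor of the histidine enzyme His3. The first set wild type in 3-AT over matched untreated wild type, and the second did the same within a gcn2 deletion. The third set the deletion over wild type, both in 3-AT. Gcn2 is the protein kinase that senses uncharged tRNA and phosphorylates eIF2. The fourth course compared the splicing mutant prp8-1, labelled 37C[YPD], with wild type, labelled 37C, at the same 6 times. The wild-type label names no medium, so the media may differ. The fifth followed wild type in 10% ethanol against untreated wild type at 5, 10, 15, 20, 25 and 30 min. Deletion strains of RAI1, RRP6, RTT103, SKI2, UPF1 and XRN1, all labelled MIN for their condition, were set against wild type on 1 pair each. The labels name no strain background. The 3 courses in 3-AT share treated RNA samples, so their values are given side by side.

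Every value is a log2 ratio, treated over untreated or mutant over wild type, averaged over both dyes. Dye partners correlated between 0.18 and 0.92 over all probes, and array medians lay between -0.036 and 0.035. Over the members' probes alone this correlation reached down to -0.134 on the arrays that compare the treated strains directly and to 0.293 in ethanol. It was 0.128 in rtt103 and 0.329 in ski2. Repeated spots of a probe also differed most in ethanol, with a median SD of 0.219. The direction was checked on the deleted genes, which stood between -4.35 (GCN2 in the gcn2 deletion) and -2.37 (RAI1 in its own deletion). GCN2 was read on the arrays that compare the treated strains directly, and RTT103 has no probe. No deleted gene checks any course of treated over untreated cells of the same strain, ethanol included. None checks the course of the splicing mutant either. The direction of all these courses is therefore likely and no more. The few arrays set the precision, with n = 6 pairs for a course and n = 1 for a deletion strain. Whether the 6 time points are separate cultures is not labelled. A p-value therefore rests on their spread alone, and that spread may be technical. A level is relative to the other RNA of a sample, and less RNA in every cell cannot be told apart from its loss in some cells.

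No probe sequence was given, so it was not checked whether a probe tells the A copy from the B copy, and no sequence is printed. Which probe reads the intron, the junction or the exon was inferred from its place on the slide and from which position rose in prp8-1. In 218 of 229 genes with all kinds (95.2%), and in all 38 members among them, the gene followed its class. The direction of a class was set by the majority of its genes in this same course, so the count is no independent check. It covers the intron and exon probes only. The junction probe was taken from the remaining probes by place, and its kind was not checked. For the remaining spliced member, RPS16A, the kinds stayed unknown. In prp8-1 its probes stood at -0.19, 0.38 and -0.03, and in wild type in 3-AT at 0.28, 0.24 and 0.13. The index below is the intron probe minus the exon probe and rises when intron signal gains on exon signal. It does not tell unspliced RNA from excised intron. The junction index is the junction probe minus the exon probe. The level is the exon probe, or the only probe of a gene without intron. Index and level share the exon probe, so error in that probe moves them in opposite directions.

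In prp8-1, which carries a temperature-sensitive form of the core spliceosome protein Prp8, intron signal of the small-subunit genes was high at the first sample. This course helped to define the probe kinds, so its indices only describe. The median index of the 38 genes was 1.71, against 1.51 for 52 large-subunit genes and 1.01 for 133 other spliced genes. By time the median was 1.82 at 2 min, 2.15 at 4 min, 1.90 at 6 min, 1.33 at 10 min, 1.12 at 15 min and 1.77 at 20 min. It was highest at 4 min, lowest at 15 min and high again at 20 min. Of 38 members, 35 stood at 0.5 or more, beside a background of 84.7% of all 229 genes.

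The spread between members in prp8-1 was wide. RPS19B, whose protein lies in the head of the subunit, had the highest index, at 2.57, 2.86, 3.00, 2.35, 2.12 and 2.94 over the 6 times. RPS25A, for a protein of the head needed by some viral internal ribosome entry sites, averaged 2.61. RPS0B and RPS0A, whose products are needed to mature the 18S rRNA, averaged 2.41 and 2.36. The lowest were RPS30A at 0.13, RPS10A at 0.30 and RPS23B at 0.38. RPS26B went from 2.28 at 4 min to -0.66 at 15 min, while its exon probe went from 0.01 to 1.56.

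The transcript level of the genes without intron was also higher in prp8-1 late in the course. All 9 rose (limma adjusted p from 5.68e-05 to 0.00555), beside a background of 34.5% of 747 genes with 1 probe. RPS3, for a protein at the mRNA entry channel, was at 0.41, 0.22, 0.25, 0.48, 1.13 and 1.40. RPS22A was at -0.07, 0.03, 0.03, 0.38, 1.15 and 1.37. Both were near or below 0.5 until 10 min and above 1 at 15 and 20 min. The median of the 9 genes went from -0.04 at 2 min to 0.83 at 20 min, and that of the 38 exon probes from -0.05 to 0.52. Junction indices spread from -0.88 for RPS27A to 0.50 for RPS0A, with a median of -0.10.

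In wild type in 3-AT, intron signal of the small-subunit genes gained on exon signal within 2 min. The index rose in 34 of 38 genes and fell in 0 (limma adjusted p under 0.05). At an unadjusted p under 0.05 these counts were again 34 and 0. Over all 229 genes, 69% passed, 57.6% by rising and 11.4% by falling. The median member stood at 0.36, the median of all genes at 0.19 and that of 52 large-subunit genes at 0.27. Over time, the members' median went from 0.28 at 2 min to 0.39, 0.48 and 0.47 at 4, 6 and 10 min, and was 0.23 and 0.24 at 15 and 20 min. At all 6 times 28 members were above 0, beside 43.7% of all genes.

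RPS24A had the highest index in wild type in 3-AT. It stood at 0.55, 1.22, 1.15, 1.50, 1.31 and 1.35 from 2 to 20 min, a mean of 1.18 ± 0.33 (SD, n = 6; limma adjusted p = 1.08e-06). The 2 min sample was far below the other 5. RPS29B, for a small zinc-binding protein of the head, was at 0.33, 0.79, 0.95, 1.26, 1.12 and 1.14, a mean of 0.93 ± 0.336 (SD, n = 6; limma adjusted p = 1.22e-06). RPS26A, whose protein lies at the mRNA exit channel, was at 0.37, 0.86, 0.99, 1.16, 1.09 and 1.05, a mean of 0.92 ± 0.286 (SD, n = 6; limma adjusted p = 1.08e-06). All 3 had their lowest value at 2 min and stayed high to the end. RPS25A averaged 0.82 ± 0.21 (SD, n = 6; limma adjusted p = 1.08e-06). The intron probe itself averaged 1.00, 1.08, 0.84 and 0.73 in these 4 genes, in the order named.

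The 4 members that did not pass were RPS10A, RPS23A, RPS27A and RPS26B, with means from -0.12 to 0.05 (limma adjusted p from 0.0856 to 0.513). RPS26B was at 0.13, 0.05 and 0.16 in the first 3 samples and at -0.23, -0.51 and -0.34 in the last 3. Its change over the course passed, at -0.35 per 10 min (limma adjusted p = 0.0206). RPS25B was the other gene with a slope, at 0.47 per 10 min (limma adjusted p = 0.00827). It went from 0.22 at 2 min to 1.22 at 20 min, while its exon probe fell to -0.89. Rising slopes were found in 14.4% of all genes and falling slopes in 6.99%. The count of 2 members became 5 without the pair at 10 min, 4 without that at 2 min, and 1 without the pair at 4, 6 or 15 min.

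**Figure D1:**
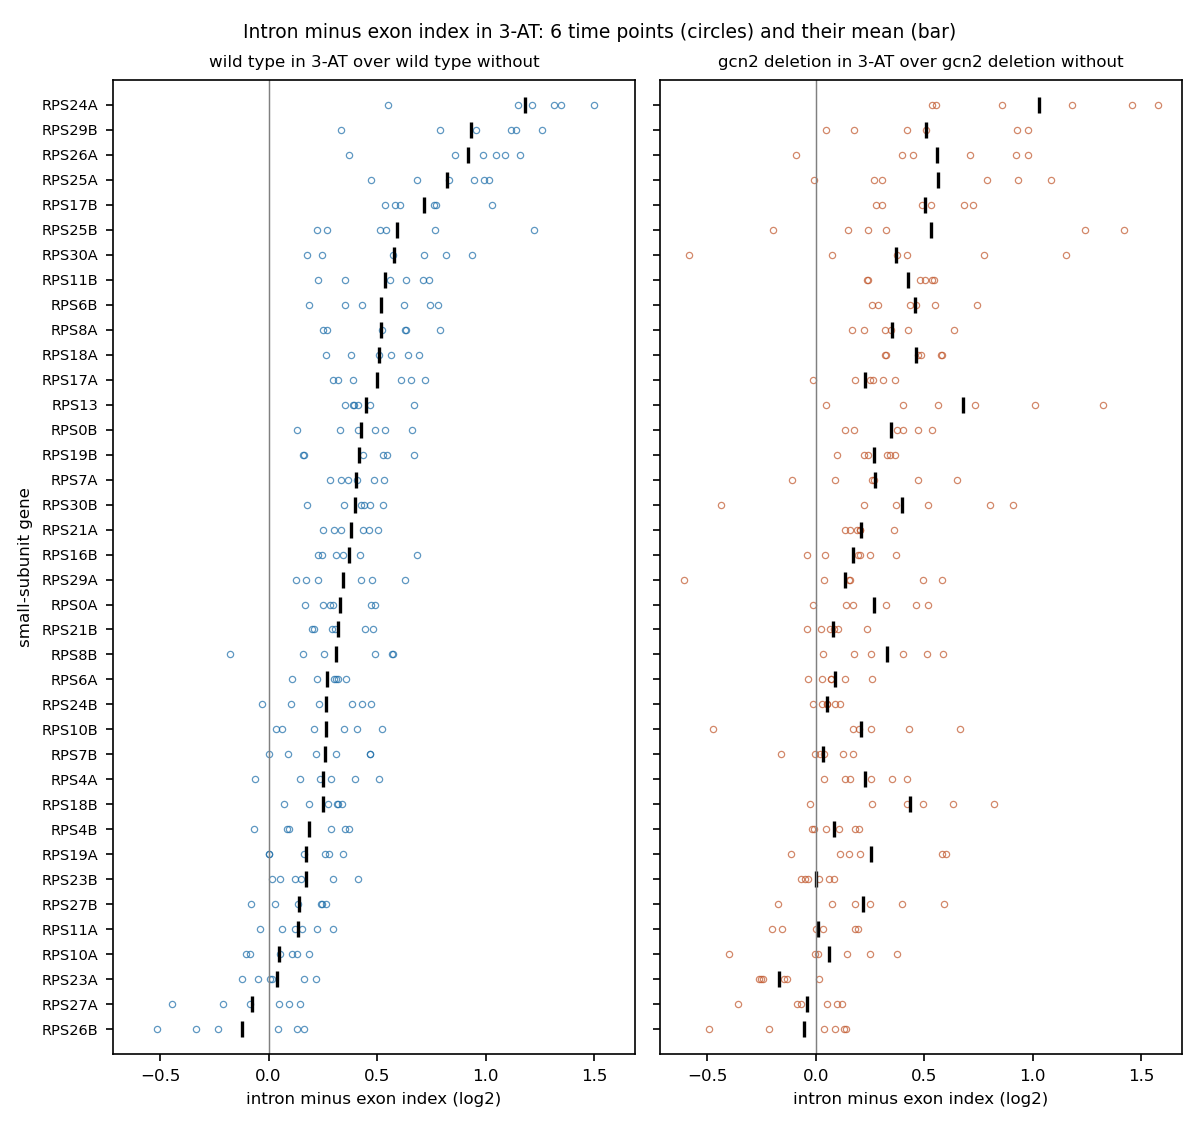
Intron minus exon index (log2, horizontal axis) of the 38 small-subunit genes with an intron (rows, ordered by the wild-type mean) in wild type (left) and in the gcn2 deletion (right), each in 3-AT over its own untreated control. Circles are the 6 time points and black bars their mean. RPS24A lies at the top in both panels (1.18 and 1.03), and RPS26B, RPS27A and RPS23A lie near or below 0.

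In the gcn2 deletion the index of most small-subunit genes rose in 3-AT too, from a median near 0 at 2 min. The index rose in 26 and fell in 1 of 38 genes, beside 62.9% of all genes passing, 46.3% rising and 16.6% falling. The median member was at 0.26 and the median of all genes at 0.09. By time the members' median was -0.01, 0.17, 0.18, 0.30, 0.45 and 0.53, so it was lowest at 2 min and highest at 20 min. The slope passed as rising in 18 members and as falling in 0 (by limma; 21 and 0 at an unadjusted p under 0.05), beside 36.2% and 7.42% of all genes.

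RPS24A was again highest, at 0.55, 0.54, 0.86, 1.18, 1.46 and 1.58, a mean of 1.03 ± 0.448 (SD, n = 6; limma adjusted p = 3.26e-08). RPS13, a single-copy gene, was at 0.05, 0.56, 0.40, 0.74, 1.01 and 1.33 and averaged 0.68 ± 0.452 (SD, n = 6; limma adjusted p = 2.02e-06). RPS25A and RPS26A both averaged 0.56 (limma adjusted p = 6.6e-06 and 2.33e-05). These 4 genes rose over the course, with slopes between 0.51 and 0.63 per 10 min. The steepest slope was that of RPS25B, at 0.91 per 10 min, from -0.20 at 2 min to 1.42 at 20 min. RPS23A, whose protein reaches into the decoding centre, was the gene that fell, at -0.17 ± 0.106 (SD, n = 6; limma adjusted p = 0.00809). It was below 0 at 5 of 6 times. RPS23B, RPS27A and RPS26B stood at 0.00, -0.04 and -0.05 and did not pass.

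The pair at 2 min of the gcn2 deletion stood apart for several genes. The level of RPS30A was 0.86 there and at most 0.11 later, that of RPS10B 0.81, of RPS29A 0.80, of RPS30B 0.70 and of RPS28A 0.66. Their indices were low in the same pair, at -0.59 for RPS30A, -0.61 for RPS29A and -0.47 for RPS10B. Its part in the counts was measured by leaving it out: 29 in place of 27 indices passed, and 16 in place of 18 slopes. RPS28A, at 0.00 over the course, stood at -0.13 without it.

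The responses of both strains were also compared as a difference, over the same 6 times. The index response was higher in wild type in 5 of 38 genes and lower in 0 (by limma, with 13 and 2 at an unadjusted p under 0.05), beside 13.1% of all genes passing and 11.8% higher in wild type. These were RPS29B with a difference of 0.42 (adjusted p = 0.0158), RPS26A with 0.36 (adjusted p = 0.0427), RPS17A with 0.27 (adjusted p = 0.0477), RPS21B with 0.24 (adjusted p = 0.0398) and RPS23A with 0.21 (adjusted p = 0.0480). Each was higher in wild type at 6 of 6 times. RPS23A did not pass as rising in either strain, with means of 0.04 in wild type and -0.17 in the gcn2 deletion. RPS13 stood the other way at -0.23 and did not pass. On the arrays that compare both treated strains directly, only RPS21B of these 5 passed as lower in the gcn2 deletion, at -0.32, while RPS29B stood at 0.01, RPS26A at -0.08, RPS17A at -0.13 and RPS23A at -0.01. The untreated samples also enter the first comparison and not the second. The count was 0 with either dye alone, 9 with all courses of a table in 1 fit, 0 without a term for time, 0 without the pair at 4, 6 or 10 min, 1 without that at 15 min, 3 without that at 20 min, and 9 without that at 2 min.

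On the direct arrays the treated gcn2 deletion and treated wild type crossed over. The median index of the 38 genes was -0.11, -0.04, -0.17 and -0.10 from 2 to 10 min and 0.09 and 0.16 at 15 and 20 min. Averaged over the course, 7 genes were higher and 7 lower in the deletion, beside 42.8% of all genes passing (21.8% higher and 21% lower), and the median was -0.01. A rising slope passed in 14 members and a falling one in 0 (by limma; 17 and 0 at an unadjusted p under 0.05), beside 21.8% and 5.68% of all genes. This count was 9 without the pair at 4 min, 9 without that at 15 min and 4 without that at 20 min. With Cy3 alone 1 slope passed.

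RPS13 differed most between the treated strains. Its index in the gcn2 deletion relative to wild type was 0.38, 0.40, 0.42, 0.46, 0.68 and 0.75, a mean of 0.51 ± 0.16 (SD, n = 6; limma adjusted p = 1.02e-07), above 0 throughout. RPS24A was at 0.03, -0.04, -0.27 and 0.05 until 10 min and at 0.77 and 0.83 at the end (mean 0.23; limma adjusted p = 0.00922). RPS6A, for the protein whose phosphorylation depends on TORC1, averaged 0.21, and RPS30B 0.19. The lowest was RPS27A, at -0.35 ± 0.0677 (SD, n = 6; limma adjusted p = 1.41e-05) and between -0.44 and -0.27 at all times. RPS24B and RPS21B both averaged -0.32 and RPS25A -0.20. RPS24A and RPS24B thus lay on opposite sides of 0.

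Within each strain in 3-AT the junction index fell more often than it rose. In wild type the share that fell was near that of all genes. In wild type it rose in 2 and fell in 15 of 38 genes, beside 48.9% of all genes passing (13.1% and 35.8%), with a median of -0.07. The paralogs RPS27A and RPS27B were lowest at -0.53 and -0.51 (limma adjusted p = 0.000159 and 0.0466). RPS27B ran from 0.43 at 2 min to -1.08 at 6 min. RPS26B averaged -0.30 and RPS21B -0.29, while RPS23B and RPS6A rose, at 0.15 and 0.13, ahead of RPS25A at 0.11 and RPS10A at 0.06, which did not pass. In the gcn2 deletion 2 rose (RPS25A at 0.22 and RPS18A at 0.18) and 17 fell, beside 42.4% of all genes passing (16.2% and 26.2%). RPS27A was again lowest at -0.39, followed by RPS23A at -0.36 and by RPS8B and RPS7B at -0.28. Without the pair at 10 min the 19 calls became 12. On the direct arrays 7 were higher and 4 lower in the deletion, beside 33.2% of all genes passing (17% and 16.2%). RPS6A was highest there at 0.38 and RPS21B lowest at -0.32 (limma adjusted p = 0.000603 and 0.000981). RPS29B at 0.35 and RPS24A at 0.24 were also higher, and RPS27A at -0.27, RPS13 at -0.16 and RPS23B at -0.14 lower, of which RPS24A and RPS23B changed sign with 1 dye alone. The count in wild type depended on the dye: arrays with treated RNA in Cy3 alone gave 5 higher and 6 lower.

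Transcript levels of the small-subunit genes had medians near 0 in 3-AT. In wild type, 14 of 38 spliced members rose and 9 fell, and 2 of 9 without intron rose and 1 fell, beside 67.2% of all 976 genes passing (36% rising and 31.2% falling). The median of the spliced members was 0.04 and that of the others 0.04 as well. RPS27A rose most, from 0.18 at 2 min to 0.76 at 15 min, a mean of 0.50 ± 0.213 (SD, n = 6; limma adjusted p = 0.000145). RPS26B followed at 0.24, RPS7B at 0.19 and RPS29B at 0.15. The lowest were RPS25B at -0.26, RPS31 at -0.24, RPS24A at -0.18 and RPS23B at -0.17. Among genes without intron RPS22A and RPS1A rose, at 0.12 and 0.08. The other members of that class, RPS20, RPS12, RPS3, RPS15, RPS2 and RPS28A, stood between -0.08 and 0.07.

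RPS31 encodes a fusion of ubiquitin with a small-subunit protein and was the lowest of the levels in the gcn2 deletion. It stood there at 0.24, -0.36, -0.27, -0.46, -0.99 and -1.24, a mean of -0.51 ± 0.531 (SD, n = 6; limma adjusted p = 3.65e-05). Between the treated strains it was at -0.10, -0.40, -0.44, -0.50, -0.68 and -0.65, a mean of -0.46 ± 0.208 (SD, n = 6; limma adjusted p = 3.7e-05). It was below 0 in every sample but the first of the gcn2 course. In that course 10 of 38 spliced members rose and 6 fell, and 1 of 9 others rose (RPS22A at 0.15) and 1 fell, beside 61.5% of all genes passing (33.1% and 28.4%). RPS27A led again at 0.45, with RPS7B at 0.31, RPS26B at 0.22 and RPS29A at 0.21, and RPS25B at -0.30, RPS24A at -0.24 and RPS18B at -0.21 were the lowest spliced members. The 18 calls became 10 without the pair at 20 min. On the direct arrays 7 spliced members were higher and 10 lower, and 1 of 9 others was higher (RPS15 at 0.13) and 2 lower (RPS31, and RPS2 at -0.15), beside 60.1% of all genes passing (35.1% and 25%). RPS21B was highest at 0.28, with RPS27A at 0.25. RPS10B at 0.19 and RPS10A at 0.18 came next but stood below 0 with Cy5 alone. The lowest spliced genes were RPS29B at -0.21, RPS6A at -0.20 and RPS24A at -0.18.

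Genes that build the subunit were set beside its proteins. For 14 assembly factors of the 40S subunit on the slide, 3-AT gave 13 that rose and 1 that fell in wild type, with a median level of 0.50, and 13 rose in the gcn2 deletion, with a median of 0.53. Of all genes, 36% rose and 31.2% fell in wild type, and 33.1% rose in the deletion. Of 7 regulators of ribosomal protein transcription, 6 rose in wild type and 5 in the deletion, with medians of 0.23 and 0.25. On the direct arrays 8 assembly factors were higher and 2 lower in the deletion, and 3 regulators were higher and 3 lower, beside 35.1% and 25% of all genes. In ethanol 2 assembly factors rose and 10 fell (median -0.39), and 6 of the 7 regulators fell (median -0.30), beside 30.6% and 49.3% of all genes. In prp8-1 the median level of the assembly factors was 0.96 and that of the regulators -0.13.

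**Figure D2:**
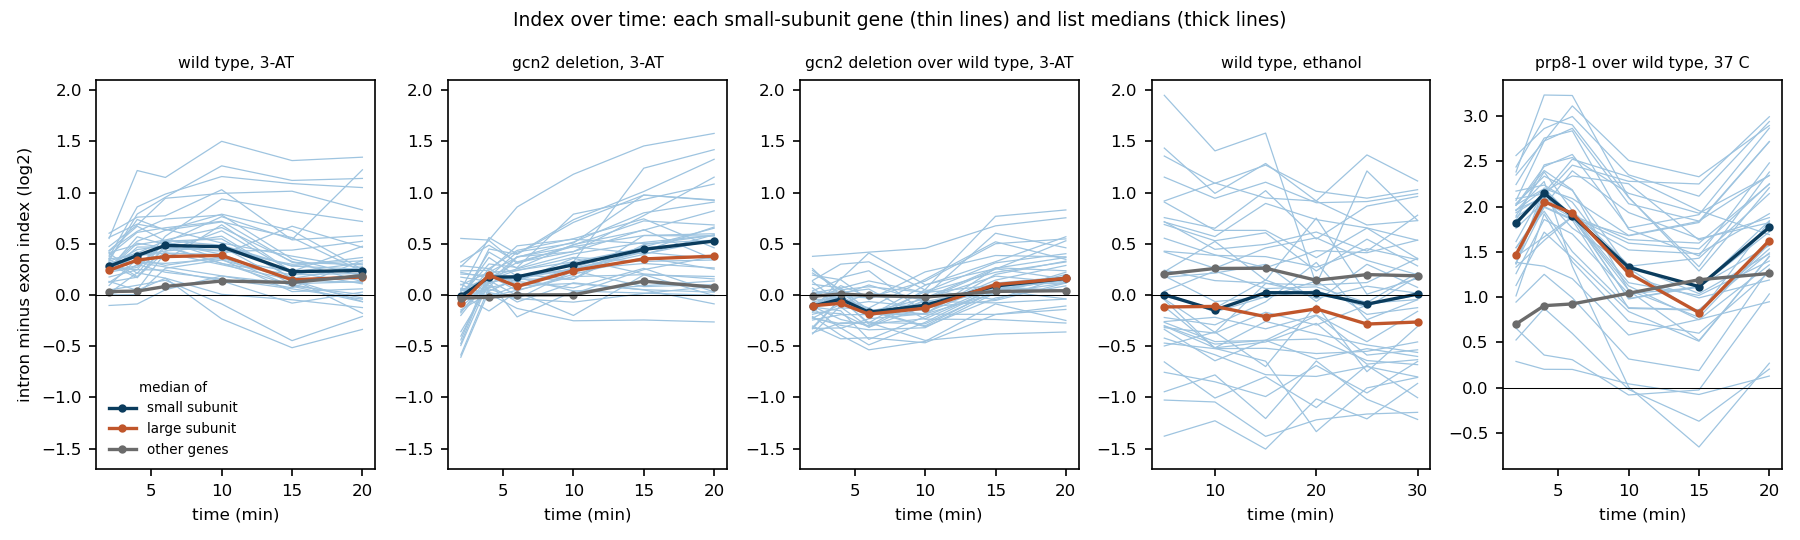
Intron minus exon index (log2, vertical axis) against time in min in the 5 courses. Thin lines are the 38 small-subunit genes, and thick lines are medians of small-subunit, large-subunit and other spliced genes. The vertical scale of the prp8-1 panel differs. The small-subunit median peaks at 6 min in wild type in 3-AT (0.48) and at 20 min in the gcn2 deletion (0.53), while in ethanol the single genes spread on both sides of 0.

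In ethanol the small-subunit genes split. The index rose in 15 and fell in 16 of 38 genes, with a median of 0.00, beside 78.2% of all 229 genes passing (46.3% rising and 31.9% falling). The median of large-subunit genes was -0.22 and that of the other spliced genes 0.21. At 20 min RPS30A and RPS30B stood apart from their other samples. Leaving out any 1 pair gave between 30 and 32 calls. No slope passed in either direction in this course (by limma; 2 rising and 3 falling at an unadjusted p under 0.05), beside 0% of all genes, and without the pair at 20 min 2 passed.

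The highest indices in ethanol belonged to RPS0B, RPS30A, RPS0A and RPS4A. RPS0B was at 1.44, 0.99, 1.28, 0.92, 1.37 and 1.11, a mean of 1.19 ± 0.209 (SD, n = 6; limma adjusted p = 1.52e-09). RPS0A averaged 1.12 ± 0.161 (SD, n = 6; limma adjusted p = 3.58e-10). All 12 of these values were above 0.9. RPS30A was at 1.95, 1.41, 1.58, 0.10, 1.21 and 0.73 and averaged 1.16. RPS4A stood between 0.90 and 1.15 at all times. The intron probes of these 4 genes averaged -0.17, 0.44, 0.44 and 0.45 in the order RPS0B, RPS30A, RPS0A, RPS4A, and their exon probes were at -1.35, -0.73, -0.68 and -0.55. For RPS0B the index was high with a low exon probe and an intron probe near 0.

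At the other end, RPS26B was at -1.38, -1.23, -1.50, -1.01, -1.21 and -0.86, a mean of -1.20 ± 0.234 (SD, n = 6; limma adjusted p = 5.7e-10). RPS10B averaged -1.16 ± 0.129 (SD, n = 6; limma adjusted p = 3.53e-10), and RPS29A -0.87. In these 3 genes the exon probe was high (0.92, 1.41 and 0.89) while the intron probe stood at -0.28, 0.24 and 0.01. RPS13 was different, with an index of -0.97, an intron probe of -0.68 and an exon probe of 0.29. Its intron probe was the lowest of all members and below 0 at all 6 times. Across the 38 genes the intron probe was above 0 at all 6 times in 26 and below 0 in 2, beside 60.3% and 14% of all genes.

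**Figure D3:**
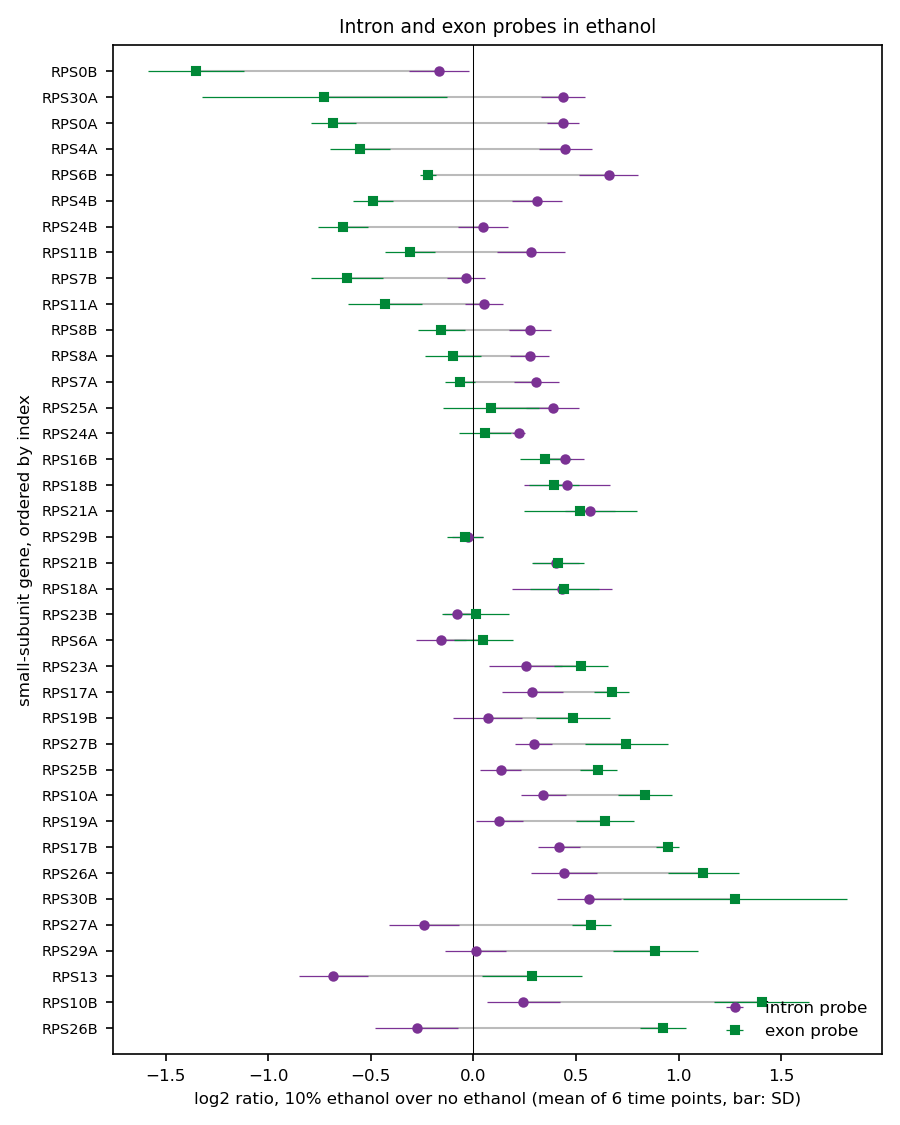
Log2 ratio in 10% ethanol over untreated (horizontal axis; mean of 6 time points, bars are SD) of the intron probe (circles) and exon probe (squares) of each small-subunit gene, ordered by index. Exon probes run from -1.35 (RPS0B) to 1.41 (RPS10B) and intron probes over a narrower range, with RPS13 lowest at -0.68.

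Levels in ethanol rose in 20 and fell in 11 of the 38 spliced members, with a median of 0.32, beside 79.9% of all genes passing (30.6% rising and 49.3% falling), whose median was -0.12. RPS10B was at 1.21, 1.17, 1.50, 1.78, 1.28 and 1.50, a mean of 1.41 ± 0.231 (SD, n = 6; limma adjusted p = 1.61e-07). RPS30B averaged 1.27, RPS26A 1.12 and RPS17B 0.95 ± 0.0568 (SD, n = 6; limma adjusted p = 8.98e-08). The lowest were RPS0B at -1.35 ± 0.234 (SD, n = 6; limma adjusted p = 2.87e-07), RPS30A at -0.73 and RPS0A at -0.68. For RPS30A and RPS30B these are values of the exon probe, and their junction probes stood in the opposite order. Of the genes without intron 2 rose and 2 fell. RPS28A rose by 0.71 and RPS22A by 0.11, while RPS2, for a protein at the mRNA entry channel, stood at -0.65 and RPS1A at -0.58. The other 5, RPS20, RPS15, RPS31, RPS12 and RPS3, lay between -0.10 and 0.12. RPS28A was above 0 and RPS2 below 0 in all 6 samples.

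Probes of the same transcript differed in ethanol for some members. RPS8A, RPS25A, RPS26A and RPS29A carry an extra probe, which was compared with the exon probe in all 11 groups. The median absolute difference over 44 values was 0.061. In ethanol it was 0.24, 0.30, -0.46 and 0.48 in that order, with RPS26A at 1.12 by its exon probe and 0.66 by the extra probe, and RPS29A at 0.89 and 1.37. In the 3-AT courses the largest difference was -0.10. The junction index in ethanol rose in 18 and fell in 13 genes, beside 77.7% of all genes passing (48.5% and 29.3%). RPS30A was far above the rest at 2.41 ± 0.462 (SD, n = 6; limma adjusted p = 1.14e-08), then RPS24A at 1.24 and RPS29A and RPS6B at 0.81. The lowest were RPS26A at -0.99, RPS30B at -0.93, RPS10B at -0.60 and RPS17B at -0.42. With treated RNA in Cy5 alone 16 genes passed, of which 14 are among these 31, and RPS24A stood at -0.01.

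Copies of the same protein were compared as A minus B within each time point. In wild type in 3-AT both copies rose in 14 of 18 pairs and 1 copy alone in 4, beside 58.5% and 36.6% of the 41 pairs on the slide. The difference itself passed in 14 pairs, beside 68.3% of those pairs. The largest was RPS26, where the A copy exceeded the B copy by 1.04 ± 0.509 (SD, n = 6; limma adjusted p = 1.55e-10). RPS24 followed with 0.91 ± 0.377 (SD, n = 6; limma adjusted p = 9.04e-11). In both pairs A was higher at all 6 times. In RPS29 the B copy was higher, at -0.59 ± 0.223 (SD, n = 6; limma adjusted p = 1.1e-07). Further pairs that passed were RPS18 at 0.26, RPS25 at 0.23, RPS30 at 0.18 and RPS7 at 0.14 with A higher, and RPS6 at -0.25, RPS19 at -0.24, and RPS10 and RPS27 at -0.22 with B higher.

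In the gcn2 deletion 12 of 18 pairs passed, beside 63.4% of all pairs. RPS24 stood at 0.97 and RPS26 at 0.61, RPS6 and RPS29 at -0.37, RPS27 at -0.26, RPS7 at 0.24, RPS23 at -0.17, RPS10 at -0.15, RPS4 at 0.14 and RPS21 at 0.13, which stood at -0.014 with Cy5 alone. The direct arrays gave 10 passing pairs, beside 46.3%. RPS24 was again widest at 0.55, with RPS27 at -0.29, RPS21 and RPS25 at 0.19 and -0.19, RPS0 at -0.17, RPS7 at -0.16, RPS30 at -0.13 and RPS23 at 0.10, which stood at -0.021 with Cy3 alone. Without a term for time, 8 pairs passed in wild type and 5 on the direct arrays.

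In ethanol both copies rose in 6 pairs, both fell in 5, and they went opposite ways in 3, beside 26.8%, 24.4% and 17.1% of all 41 pairs. The difference passed in 9 pairs, beside 65.9% of all pairs. RPS30A exceeded RPS30B by 1.87 ± 0.319 (SD, n = 6; limma adjusted p = 8.3e-07), and the difference lay between 1.44 and 2.23 at all times. RPS6 went the other way at -1.09 ± 0.285 (SD, n = 6; limma adjusted p = 2.17e-06), with RPS6A at -0.21 and RPS6B at 0.88. RPS25 was the third opposed pair, with a difference of 0.78. The rest were RPS29 at -0.89, RPS10 at 0.67, RPS24 and RPS26 at -0.52 and 0.52, RPS27 at -0.36 and RPS4 at 0.20, which stood at -0.33 with Cy3 alone. RPS27 was the pair that passed with the B copy higher in all 4 tested courses, although with treated RNA in Cy5 alone its ethanol value was 0.14. RPS24 was higher in A in the 3 courses in 3-AT and higher in B in ethanol.

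**Figure D4:**
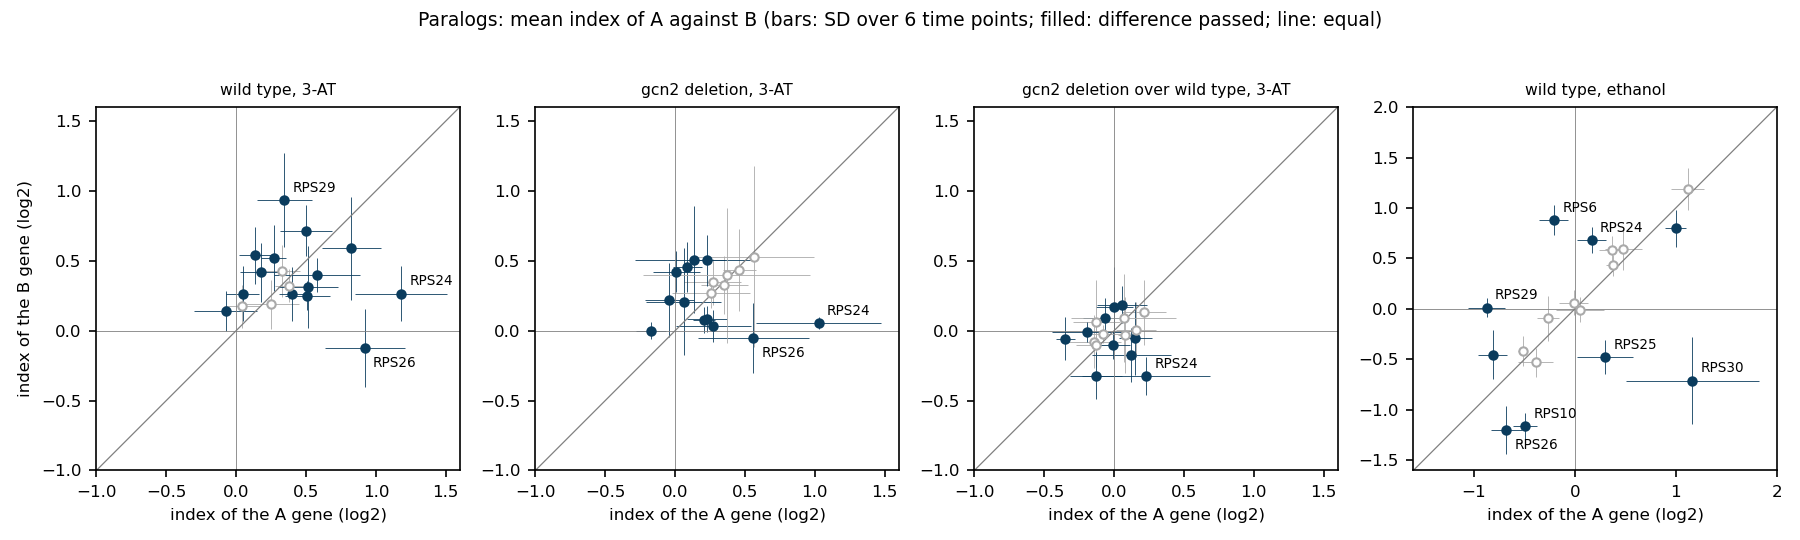
Mean index of the A gene (horizontal axis, log2) against that of the B gene (vertical axis, log2) for 18 paralog pairs in 4 courses; bars are SD over 6 time points, filled points passed the test of the difference, and the line marks equal values. Pairs that differ by 0.5 or more are named. RPS24 and RPS26 lie far below the line in wild type in 3-AT, and RPS30 and RPS6 lie on opposite sides of it in ethanol.

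Levels of paralogs differed as well. In wild type in 3-AT 11 of 18 pairs passed, beside 56.5% of 46 pairs. RPS27A exceeded RPS27B by 0.40, RPS23 stood at 0.24 and RPS25 at 0.16, and RPS24 and RPS26 at -0.32, RPS7 at -0.30, RPS21 at -0.24, RPS10 at -0.17, and RPS19 at -0.16. In the gcn2 deletion 10 pairs passed, beside 39.1%, led by RPS27 at 0.40 and RPS7 at -0.40. The others were RPS24 at -0.38, RPS26 at -0.26, RPS10 at -0.17, RPS23 at 0.16, RPS19 and RPS21 at -0.14, and RPS6 and RPS30 at 0.12. This count was 5 without the pair at 15 min and 5 without that at 20 min. Between the treated strains 11 passed, beside 71.7%. Their sizes were at most 0.29, in RPS24 with B higher, followed by RPS27 at 0.23, RPS30 at 0.19, RPS19 at -0.17 and RPS23 at -0.16. RPS25 stood at 0.13, RPS29 at 0.12, RPS21 at -0.12 and RPS6 at -0.09.

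The widest difference between paralogs in these courses was the level of RPS30 in ethanol, as read by the exon probe of each gene. The level of RPS30A minus that of RPS30B was -2.0 ± 0.229 (SD, n = 6; limma adjusted p = 8.83e-07), between -2.39 and -1.79 at all times. By their junction probes the copies stood in the opposite order, with RPS30A higher. The index difference of RPS30 in ethanol uses the same exon probes. Which probe follows the transcript was not tested. In ethanol 11 of 18 pairs passed, beside 63%. RPS29A exceeded RPS29B by 0.93, and A was also higher in RPS24 at 0.69, RPS0 at 0.67, RPS7 at 0.55, RPS23 at 0.51, RPS6 at 0.27 and RPS26 at 0.20. B was higher in RPS10 at -0.57 and RPS25 at -0.52. RPS30B went from 0.48 at 5 min to 2.09 at 20 min and was at 1.51 at 30 min.

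The deletion strains lack factors of RNA decay or, for rtt103, of transcription termination, and were read without a test, since each has 1 pair. Rai1 is a partner of the nuclear exonuclease Rat1, Rrp6 a nuclear exosome nuclease, Rtt103 a transcription termination factor, Ski2 the helicase that feeds RNA to the cytoplasmic exosome, Upf1 the helicase of nonsense-mediated decay and Xrn1 the cytoplasmic exonuclease that degrades from the 5′ end. The median index of the 38 genes was -0.30 in rai1, -0.17 in rrp6, -0.08 in rtt103, -0.29 in ski2, 0.03 in upf1 and -0.24 in xrn1. Over all genes it was -0.14, 0.02, 0.00, -0.12, 0.02 and 0.00 in the same order. In the rai1 and ski2 deletions the intron probe was below 0 in 37 of 38 members each, beside 60.7% and 71.6% of all genes. It was below 0 in most members in rrp6, rtt103 and xrn1 too. All these strains carry the same wild-type label. Whether they share the same wild-type RNA is not labelled and was not tested.

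In the rai1 deletion 11 members had an index of -0.5 or less and 0 of 0.5 or more, beside 14.8% and 6.11% of all genes. RPS17B stood at -0.81, RPS10B at -0.80 and RPS27A at -0.74, and the highest were RPS30B at 0.19, RPS29B at 0.11 and RPS13 at 0.05. In ski2 10 were at -0.5 or less and 0 at 0.5 or more, beside 9.61% and 2.62%. RPS30A was lowest there at -0.83, with RPS10B and RPS13 at -0.68, and RPS26A was highest at 0.11. The arrays of a pair differed, at -1.35 and -0.30 for RPS30A and -0.33 and -1.03 for RPS10B, and 3 of the 10 were past -0.5 on both. In rrp6 4 were low, beside 4.8%, and 2 high, beside 12.2%: RPS24B at -0.64, RPS11B at -0.63, RPS30A at -0.55 and RPS7A at -0.54 against RPS17A at 0.60 and RPS25B at 0.56. In rtt103 2 were low, RPS29A at -0.58 and RPS10B at -0.57, beside 1.75%, and none was high, beside 3.93%. Neither was past -0.5 on both arrays.

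In the upf1 deletion the index of RPS13 was the highest. The index was 0.5 or more in 5 members and -0.5 or less in 1, beside 14.8% and 6.55%, so the share of high members was near the background. RPS13 stood at 1.10, with 1.03 and 1.17 on its arrays, and its intron probe at 1.16. RPS19A stood at 0.86, RPS6B and RPS29B at 0.71 and RPS25B at 0.60. The arrays of RPS6B differed, at 0.23 and 1.18. The only low member was RPS19B at -0.51, so that the paralogs of RPS19 differed by 1.37. The intron probes of RPS29B, RPS6B, RPS19A and RPS25B were at 0.53, 0.24, 0.22 and 0.21, and the exon probes of RPS19A, RPS6B and RPS25B at -0.65, -0.46 and -0.39. RPS29A, whose index was under 0.5, had an intron probe at 0.67.

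In the xrn1 deletion the members spread to both sides of 0. The index was 0.5 or more in 8 and -0.5 or less in 13, beside 21% and 23.1% of all genes, so the share of high members was near the background. In those 8 genes the intron probe ran from -0.69 (RPS19A) to 0.26 (RPS29B), and the exon probe from -1.33 (RPS19A) to -0.63 (RPS6B). The index of RPS29B was 1.03, of RPS30B 0.92 and of RPS8A 0.82, and that of RPS10A -1.14, of RPS27A -1.10 and of RPS24B -0.97. In RPS24 the A copy exceeded the B copy by 1.65, at 1.17 and 2.13 on the arrays of the pair. The index of RPS24A itself differed between these arrays, at 0.03 and 1.34. Levels reached -0.5 or less in 13 spliced members and 0 without intron and 0.5 or more in 2, beside 16.6% low and 26.4% high of all genes. RPS19A was lowest at -1.33, RPS6A at -1.28 and RPS11A at -1.11, while RPS27A was at 0.71 and RPS30A at 0.60.

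The probes of RPS6A and RPS19A differed in xrn1. The intron probe of RPS6A stood at -0.53 and that of RPS19A at -0.69, and the junction probe of RPS6A at 0.07 and that of RPS19A at -0.39, which gives junction indices of 1.35 and 0.94. RPS17A and RPS11A had junction indices of 0.95 and 0.85 there. The same exon probes were low in rrp6, at -0.71 for RPS6A and -0.73 for RPS19A, and in upf1, at -0.63 and -0.65. In rrp6 RPS17B was lowest at -0.99, and its junction probe at -0.94 was low too. The highest level in rrp6 was RPS10B at 0.53. Levels reached neither 0.5 nor -0.5 in any member in rai1, rtt103 or ski2, where 6.45%, 2.87% and 2.15% of all genes were high and 6.15%, 2.77% and 2.87% low. In rai1 they ran from -0.38 for RPS30B to 0.33 for RPS10B and RPS27A, in rtt103 from -0.37 for RPS19A to 0.41 for RPS29A, and in ski2 from -0.24 for RPS3 to 0.40 for RPS10B. Genes without intron stayed between -0.39 and 0.31 in all 6 strains.

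**Figure D5:**
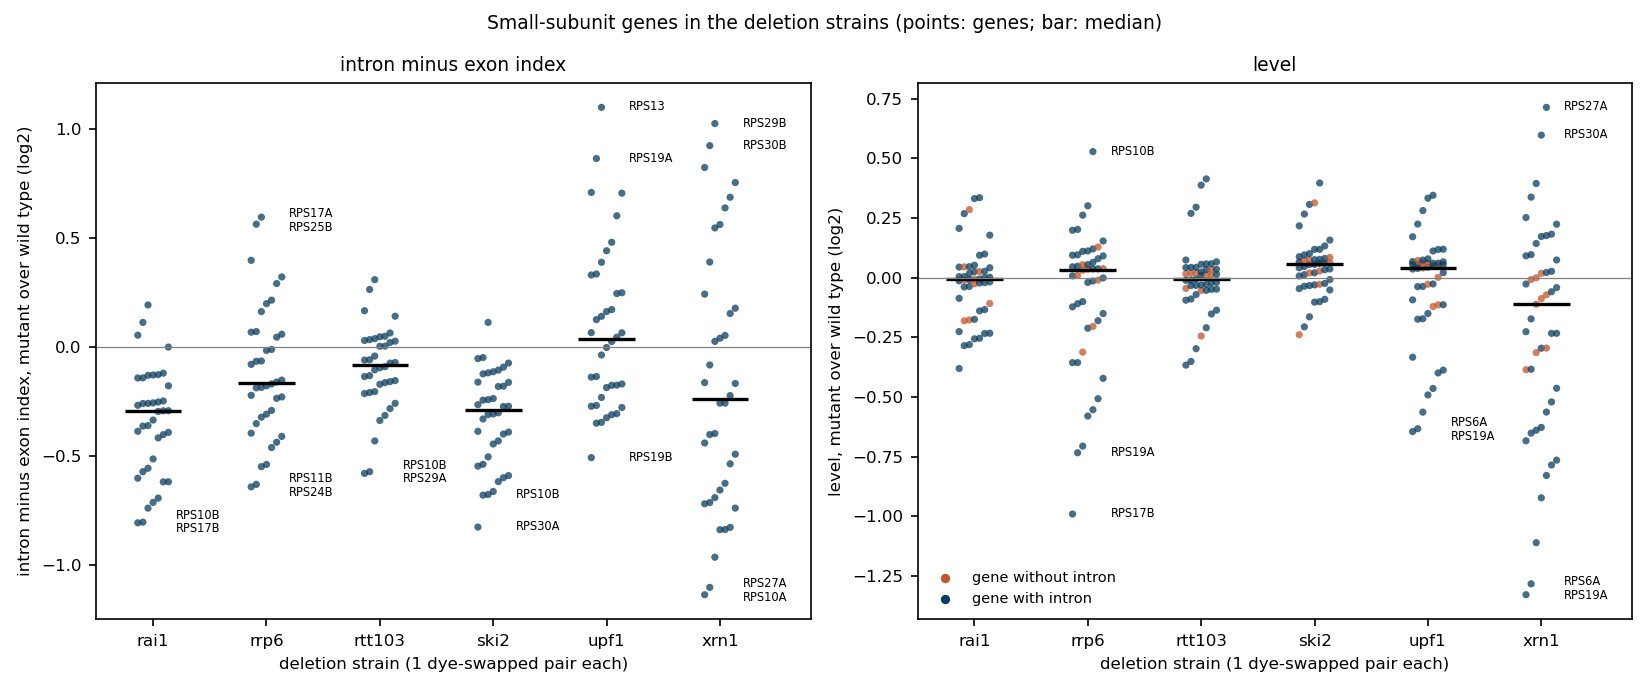
Small-subunit genes in the 6 deletion strains, as intron minus exon index (left) and level (right), both log2 mutant over wild type, mean of 1 dye-swapped pair. Each point is a gene, orange without intron, and bars are medians over the genes. Labels name up to 2 genes at each end that reach 0.5 in size, such as RPS13 in upf1 (1.10) and RPS19A in xrn1 (-1.33).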

How the data were processed

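The deposited values are log ratios per spot from two-colour arrays, in 2 tables. They were read as log2, since the base was not stated. For background correction and normalization, the steps were not given in the sources used here. Per the labels, RNA was extracted with acid phenol and aminoallyl-dUTP was incorporated during cDNA synthesis. The authors' log2 ratios already ran the same way on dye-swapped arrays and were kept as deposited. Repeated spots of a probe were averaged, then both arrays of a pair. Of 1536 probes, 79 had no gene name, and names came from the platform annotation and RefSeq.

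Probe kinds were set for 4 classes of spacing on the slide, holding 102, 94, 18 and 15 genes, by which position rose in prp8-1. Each course was fitted on its 6 pairs with limma 3.58.1 (R 4.3.3), an intercept and a slope in time, and Benjamini-Hochberg adjustment over all genes of the measure (threshold 0.05). No filter on low values was applied. The difference between strains used the pairs of both courses. For prp8-1 indices and the deletion strains, no test was used and a log2 value of 0.5 or more in size was counted. The fit was tried on simulated data with independent normal noise and a linear trend. That cannot show whether the p-values hold in these courses. Tables and figures used Python 3.11.15, pandas 2.3.3, numpy 2.4.6 and matplotlib 3.10.9.

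Named were the 4 highest and 4 lowest members in each course and measure, the 3 highest and lowest in each deletion strain, pairs of paralogs whose difference passed, and every member without intron. Differences of 3 pairs enter the counts but are not reported here. Further members are named where a count turned on them, after their values were seen. The members, lists and tests were chosen with earlier results of these data known. Alternatives were single dyes, no slope, a median over spots, centring of arrays, 1 fit per table, probe kinds set per gene, leaving out each time point, a replicate block and other folds.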

Additional observations from a re-analysis of the deposited data

Results flagged for a closer look

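The index of RPS24A in wild type in 3-AT at 2 min, 0.552, lay far from the other 5 time points of its course, which ran from 1.15 to 1.50. Its gap to the nearest value exceeded Dixon's limit of 0.625 of the range. Among 40 sets of 6 values examined this way, chance marks about 1 in 20. RPS24A had its values at 2 and 4 min (0.55 and 0.54) below the later ones in the gcn2 deletion as well.

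The index response to 3-AT differed between wild type and the gcn2 deletion in 5 genes (limma adjusted p from 0.0158 to 0.0480, higher in wild type at 6 of 6 times). The differences were 0.424 for RPS29B, 0.358 for RPS26A, 0.273 for RPS17A, 0.243 for RPS21B and 0.210 for RPS23A. The share of members that passed was near that of all genes. The number of members passing ran from 0 to 9 when single time points were left out, and was 0 with either dye alone. On the arrays that compare the treated strains directly, only RPS21B passed as lower in the gcn2 deletion, at -0.32. RPS29B stood there at 0.01 and RPS23A at -0.01.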

How the results depend on the processing

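Of the values of single genes and paralog pairs recomputed under the alternatives, 2409 kept direction and side of the threshold, 199 lost the threshold, 30 gained it and 14 reversed. Centring the arrays left 203 of them on the same side, and 1 gained the threshold. Centring could move only the levels of single genes, since all other measures are differences of probes on the same array. Setting probe kinds per gene changed the probes of no member, so calls could move only through the fit over all genes. Both alternatives are among the values counted above, so those counts overstate how much was put to a test. With treated RNA in Cy5 alone, the junction index of RPS24A stood at -0.15 in the gcn2 deletion, -0.058 on the direct arrays and -0.0094 in ethanol, the level of RPS10B at -0.068 and of RPS10A at -0.048 on the direct arrays and of RPS2 at 0.10 in wild type in 3-AT, the index difference A minus B of RPS21 at -0.014 in the gcn2 deletion and of RPS27 at 0.14 in ethanol, and the level difference of RPS29 at -0.062 on the direct arrays. With Cy3 alone, the junction index of RPS23B was 0.024 and the index difference of RPS23 was -0.021 on the direct arrays, and in ethanol the level of RPS31 was -0.18 and the index difference of RPS4 was -0.33. The level of RPS28A in the gcn2 deletion ran from -0.13 without the pair at 2 min to 0.084 without that at 20 min. The cause was not tested.

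Counts of members that passed moved by over 1.5 times as follows. Without a slope term 6 indices and 5 index pairs passed on the direct arrays, 14 levels and 8 index pairs in wild type in 3-AT, 5 levels and 5 level pairs in the gcn2 deletion, and 0 differences between strains. With Cy3 alone 11 junction indices passed in wild type in 3-AT, 1 slope on the direct arrays, 15 index pairs in ethanol and 0 strain differences. With Cy5 alone 18 junction indices passed on the direct arrays, 16 in ethanol, 1 slope in wild type and 0 strain differences. With all courses of a table fitted jointly, 6 slopes passed in wild type and 9 strain differences, and with probe kinds set per gene 3 strain differences. With time as a replicate block 8 strain differences passed in place of 5. Same-time samples of both strains correlated between 0.071 and 0.499 in their deviations, and 2 of 6 times correlated best with their own partner. The correlation was below 0.1 at 2 times, so the times were not taken as pairing the samples. In wild type in 3-AT the junction calls were 2 higher and 21 lower with Cy5 and 5 higher and 6 lower with Cy3, and on the direct arrays 7 higher and 11 lower with Cy5 and 10 higher and 5 lower with Cy3.

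Leaving out single time points gave, in the order wild type, gcn2 deletion, direct arrays and ethanol, 31 to 34, 24 to 29, 12 to 14 and 30 to 32 indices, 12 to 17, 12 to 21, 9 to 12 and 28 to 31 junction indices, 19 to 28, 10 to 23, 16 to 21 and 33 to 37 levels, and 1 to 5, 16 to 19, 4 to 14 and 0 to 2 slopes. Index pairs ran from 11 to 15, 9 to 12, 7 to 11 and 8 to 11, level pairs from 9 to 11, 5 to 11, 9 to 12 and 10 to 13, and strain differences from 0 to 9.

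At a log2 size of 1, the index passed in 0 members in rai1, rrp6, rtt103 and ski2, 1 in upf1 and 3 in xrn1, and the level in 0 in rrp6, upf1 and prp8-1 and 3 in xrn1. With both arrays past 0.5, the index passed in 3 members in rrp6, 0 in rtt103, 3 in ski2 and 3 in upf1, and the level in 4 in rrp6, 9 in xrn1 and 3 in prp8-1. The deletion strains have no replicate, and signal over background was not used here.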
